A study of Mus musculus with 16 samples.

Results

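The genes described here are 32 genes of PI3K, AKT and mTOR signaling, listed by name. They are 4 catalytic and 4 regulatory subunits of class I PI3K, 4 phosphoinositide phosphatases, a group of 4 with PDK1, AKT1, AKT2 and the AKT phosphatase PHLPP1, 2 SGK kinases, 6 genes of the mTOR complexes, 3 genes of the TSC and RHEB switch, 2 mTORC1 substrates and 3 AKT substrates. Of these, 30 were measured, each by 1 transcript cluster, among 19505 genes with a symbol. *Akt1s1* and *Rps6kb1* are not under their symbol in the array annotation and were not analysed here.

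RNA of whole sciatic nerve was hybridized to 16 Clariom S mouse arrays, with 4 arrays each of *Becn1* cKO and control mice at postnatal day 10 (P10) and of both genotypes at 2 months. The cKO mice were *Becn1* fl/fl mice that also carried a Cre transgene driven by a promoter active in Schwann cells, so that *Becn1* was deleted in these cells. The controls, labelled wild-type, were *Becn1* fl/fl or fl/+ littermates without Cre according to the methods, and which of these alleles each control carried is not given. The nerve also holds cells in which Cre is not active (endothelial cells, fibroblasts and immune cells), and animals of both sexes were used in the study. Nothing in the labels says whether each array is a separate mouse, so the p-values measure the spread between these samples.

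Class I PI3K is an enzyme of a catalytic and a regulatory subunit that phosphorylates the membrane lipid PIP2 to PIP3 when receptors for growth factors, axonal neuregulin or immune signals are engaged. PIP3 brings PDK1 and AKT to the membrane, lipid phosphatases remove it, and active AKT holds back the TSC complex, so that RHEB can switch on mTORC1, the kinase complex that drives protein and lipid synthesis. In Schwann cells this pathway is known to promote growth of the myelin sheath once myelination has begun, whereas high mTORC1 activity before that holds differentiation back. Beclin 1 itself belongs to the class III PI3K complex of autophagy, a lipid kinase different from the class I enzymes described here. The question for these data was whether the transcripts of the listed genes differ by genotype at either age. The list was chosen with earlier results of these data known, so shares called among its members describe this list only. Phosphorylation, by which the pathway acts, is not measured by an array.

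The cKO difference itself differed between the ages in 7 of the 30 measured members, 23.3% beside 12.3% of all genes. Among them were *Deptor*, *Inppl1* and *Rheb*. The other 4 were the lipid phosphatase gene *Inpp5d*, the catalytic subunit gene *Pik3cg* and the regulatory subunit genes *Pik3r1* and *Pik3r3*. The 250 bases before the most upstream start that RefSeq lists for each (build GRCm38.p6) are printed here as the sequence context of these PI3K and phosphatase genes. The window of *Inpp5d* is chr1:87620062-87620311 on the plus strand, that of *Pik3cg* chr12:32208660-32208909 on the minus strand, that of *Pik3r1* chr13:101768218-101768467 on the minus strand and that of *Pik3r3* chr4:116221166-116221415 on the plus strand. Capitals mark a GAGGAAG word, the core bound by PU.1, the ETS factor of macrophages and other myeloid cells, and by related ETS factors.
Inpp5d: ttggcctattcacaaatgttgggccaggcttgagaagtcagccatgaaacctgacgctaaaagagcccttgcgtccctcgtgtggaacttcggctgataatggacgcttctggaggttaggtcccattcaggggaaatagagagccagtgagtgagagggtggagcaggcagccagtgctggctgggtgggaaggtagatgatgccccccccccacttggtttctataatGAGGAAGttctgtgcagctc
Pik3cg: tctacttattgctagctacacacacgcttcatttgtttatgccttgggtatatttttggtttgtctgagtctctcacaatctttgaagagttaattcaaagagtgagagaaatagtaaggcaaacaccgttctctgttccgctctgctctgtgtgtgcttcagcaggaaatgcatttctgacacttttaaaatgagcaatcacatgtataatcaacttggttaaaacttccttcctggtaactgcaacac
Pik3r1: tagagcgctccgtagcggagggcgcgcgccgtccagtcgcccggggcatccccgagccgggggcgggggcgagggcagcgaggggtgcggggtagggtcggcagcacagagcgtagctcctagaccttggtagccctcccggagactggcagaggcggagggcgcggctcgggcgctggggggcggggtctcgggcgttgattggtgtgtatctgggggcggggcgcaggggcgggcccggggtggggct
Pik3r3: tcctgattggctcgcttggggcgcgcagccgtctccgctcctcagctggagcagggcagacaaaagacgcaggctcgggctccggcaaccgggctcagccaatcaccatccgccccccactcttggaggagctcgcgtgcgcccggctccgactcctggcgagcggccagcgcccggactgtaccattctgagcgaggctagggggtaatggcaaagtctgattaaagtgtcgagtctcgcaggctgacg
In *Inpp5d* the word begins 20 bases before the start. The GC content was 54.4% in the *Inpp5d* window, 38.8% in the *Pik3cg* window, 76.4% in the *Pik3r1* window and 65.6% in the *Pik3r3* window. RefSeq windows were found for 29 of the 32 genes, 48 windows in all, and not for *Sgk3*, *Deptor* and *Eif4ebp1*. GAGGAAG on either strand was in 8 of the 48 windows, those of *Inpp4b*, *Inpp5d*, *Pik3cg*, *Pik3r3* and *Sgk1*, and in 10.6% of all 32851 windows of this length. The 8 windows belong to 5 of the 29 genes, and several of them to *Sgk1* alone, which has several starts. For *Pik3cg* and *Pik3r3* the word lay before a start other than the one printed. CACGTG, the E-box read by TFEB, MYC and other factors, was in 2 of the 48 (*Rheb* and *Sgk1*) and in 6.02% of all windows. GTAAACA, the forkhead word read by FOXO factors, was in 2 of the 48 (*Akt1* and *Pik3cg*) and in 3.17% of all. These matches describe the letters of the windows only.

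The values are log2 expression values from the robust multiarray average, on which a difference of 1 is a 2-fold change, and each probe set has its own scale, so that levels are compared between arrays and not between genes. *Becn1* was 8.26 ± 0.11 in cKO and 8.61 ± 0.09 in control nerves at P10 (SD, n = 4 each), lower by limma (change -0.35, adjusted p = 0.0397), and 8.19 ± 0.06 in cKO and 8.45 ± 0.07 in control nerves at 2 months, a change of -0.26 (adjusted p = 0.0312). Where its probes lie relative to the deleted exons is not known here, which limits this check of the labels. Arrays of 1 group correlated at 0.975 to 0.994, and no 2 arrays were identical. The mean log2 level of 13 macrophage genes was 9.56 to 9.83 in cKO against 7.62 to 8.08 in control nerves at 2 months, and 7.33 to 7.66 in cKO against 6.96 to 7.25 in control nerves at P10. The 10 measured genes of the myelinating Schwann cell were all lower in cKO nerves at P10 and 9 of them at 2 months, and 9 of 9 mitosis genes were higher at both ages. Over all genes, 7.44% were called lower and 5.48% higher at P10, and 15.5% lower and 18.5% higher at 2 months. Skeletal muscle genes ran from a mean of 6.27 to 9.42 in cKO and 6.86 to 11.54 in control arrays at P10, highest in control replicate 4, with none of the 12 called at either age. The SD of this mean at P10 was 1.42 in cKO and 1.93 in control arrays, and the median change was -0.81. With this spread the lack of calls cannot tell whether muscle content differed between the genotypes. In whole nerve, fewer cells of a type and less RNA per cell cannot be told apart.

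At P10, 3 of the 30 measured members were higher in cKO nerves (*Pik3r3*, *Sgk3* and *Tsc1*) and 2 were lower (*Inpp4a* and *Deptor*), at a limma adjusted p under 0.05. This is 16.7% of the members, beside 12.9% called of all genes (5.48% higher and 7.44% lower), and the median member changed by -0.05 against 0.00 over all genes. At 2 months 11 members were higher and 4 lower, 50% of them, beside 34% of all genes (18.5% higher and 15.5% lower). The 11 higher were *Pik3r3*, *Inpp5d*, *Pik3cg*, *Sgk3*, *Pik3r5*, *Sgk1*, *Tsc1*, *Akt1*, *Pik3ca*, *Inppl1* and *Rheb*, and the 4 lower *Deptor*, *Pik3r1*, *Inpp4a* and *Pdpk1*. The median change of the 30 members was 0.18 against -0.02 over all genes. All 5 members called at P10 were called in the same direction at 2 months, where 10 more were called. The groups did not overlap in 5 members at P10 and in 15 at 2 months, beside 16.9% and 33.4% of all genes. In the plot of the log2 changes by role, calls in both directions appear at 2 months within the regulatory subunits, the phosphatases and the group of PDK1, AKT and PHLPP1.

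**Figure D1:**
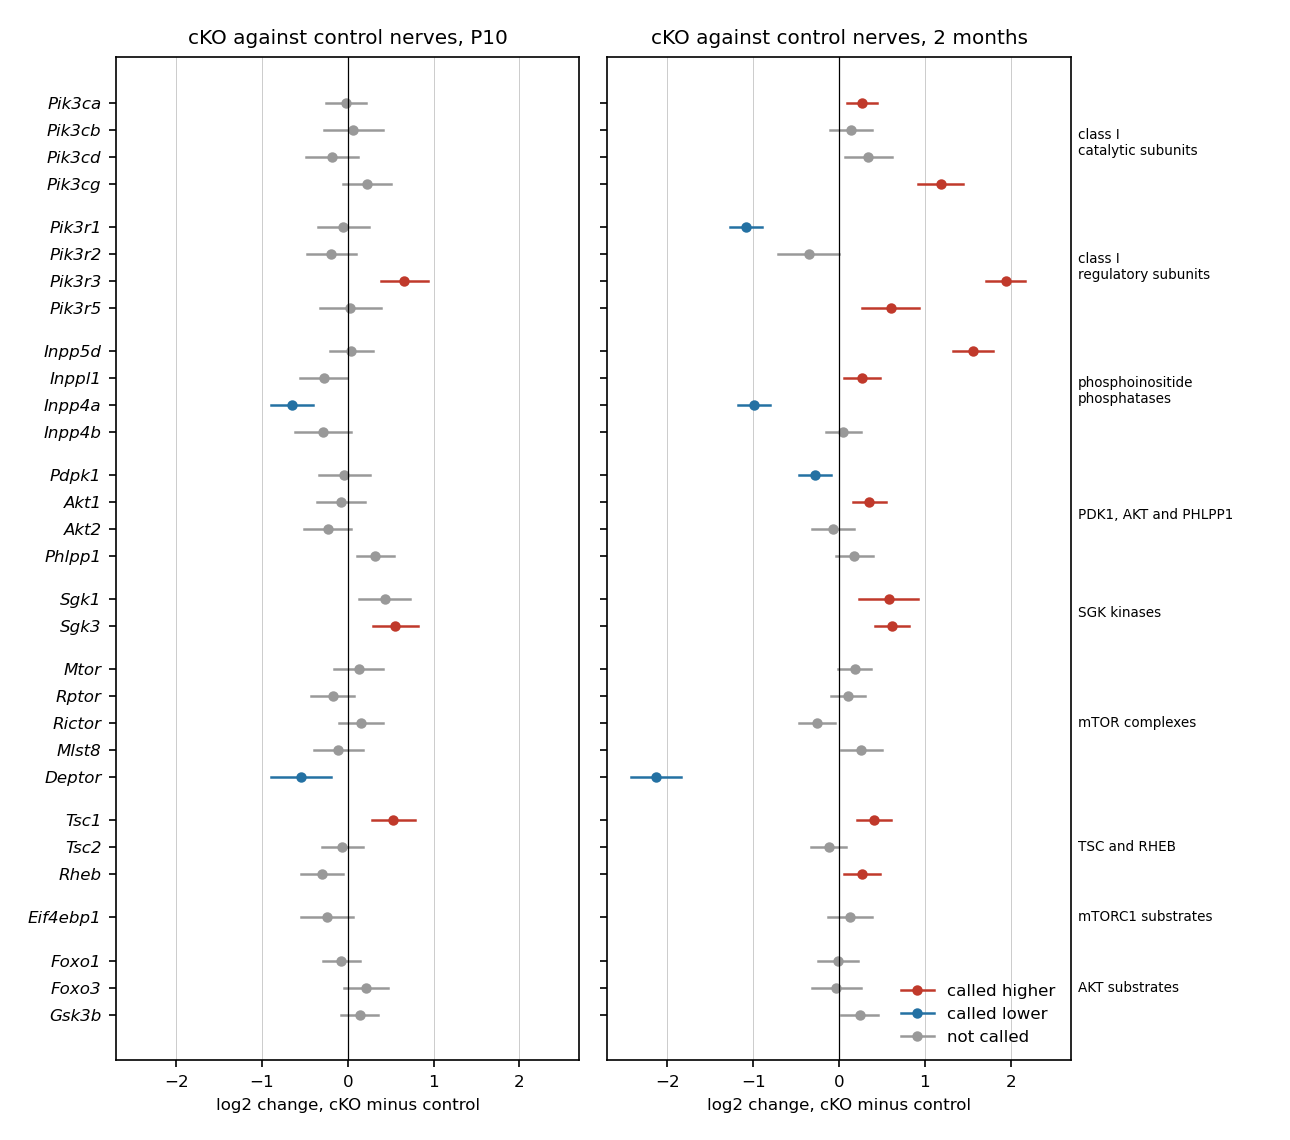
Log2 change of the 30 measured genes in cKO against control nerves at P10 and at 2 months, grouped by role, with bars for the 95% confidence interval of limma and with called genes in red (higher) or blue (lower) and the others in grey. At 2 months the changes ran from -2.13 (Deptor) to 1.94 (Pik3r3), at P10 from -0.65 (Inpp4a) to 0.66 (Pik3r3).

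The regulatory subunits of class I PI3K, which stabilize the catalytic subunit and dock it to receptors, moved apart in cKO nerves. *Pik3r3*, which encodes p55 gamma, was higher at both ages, and *Pik3r1*, which encodes p85 alpha and its shorter forms, was lower at 2 months. At 2 months *Pik3r3* measured 10.23, 10.36, 10.49 and 10.45 in the 4 cKO nerves, against 8.44, 8.71, 8.20 and 8.42 in control nerves, which left a wide gap between the groups. It was higher by 1.94 on the log2 scale (standard error 0.11, adjusted p = 6.90e-09), a 3.84-fold difference. At P10 it measured 10.14, 10.32, 9.96 and 9.98 in cKO nerves against 9.71, 9.18, 9.43 and 9.45 in control nerves, again without overlap, a change of 0.66 (standard error 0.13, adjusted p = 0.0024). The change at 2 months exceeded that at P10 by 1.28 in the interaction of genotype and age (adjusted p = 4.44e-05).

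*Pik3r1* did not separate the genotypes at P10, with 10.43, 10.35, 9.75 and 10.26 in cKO and 10.22, 10.30, 10.39 and 10.07 in control nerves. At 2 months it measured 10.20, 10.41, 10.28 and 10.30 in cKO nerves, against 11.51, 11.41, 11.33 and 11.28 in control nerves. Every cKO nerve of that age lay below every control, and the log2 change was -1.08 (standard error 0.09, adjusted p = 1.70e-07). The interaction was -1.03 (adjusted p = 0.000364). *Pik3r5* encodes p101, the partner of the gamma catalytic subunit, which is found mainly in white blood cells. Its values at 2 months were 7.23, 6.90, 7.11 and 7.22 in cKO and 6.02, 6.78, 6.66 and 6.59 in control nerves, a change of 0.60 without overlap (adjusted p = 0.00688). At P10 they ran from 6.04 to 6.51 in cKO and from 6.04 to 6.58 in control nerves, and its interaction of 0.57 was not called (adjusted p = 0.126). *Pik3r2*, which encodes p85 beta, was not called at either age and changed by -0.35 at 2 months (95% interval -0.71 to 0.00).

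The plot of single arrays shows the members that were farthest apart at 2 months, together with *Sgk3* and *Tsc1*, which are described further on.

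**Figure D2:**
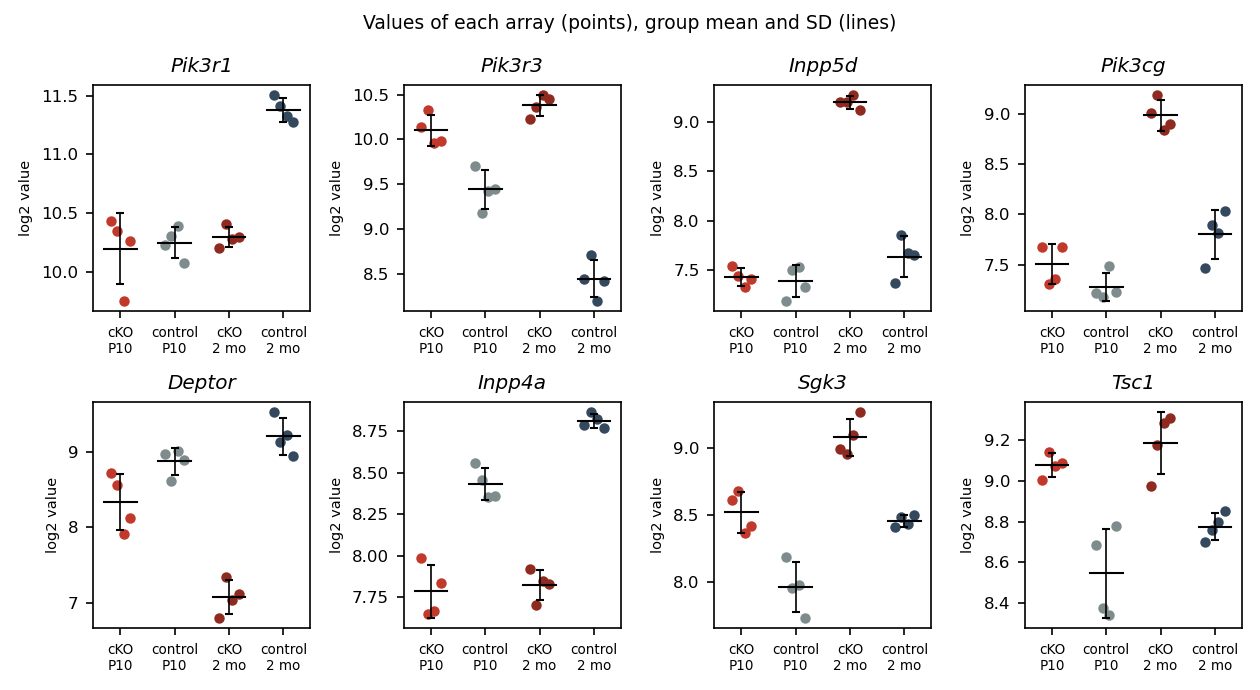
Log2 values of single arrays (points) of 8 genes in cKO and control nerves at P10 and at 2 months, with the mean and SD of each group of 4 as lines and a scale of its own for each gene. At 2 months the 4 cKO values and the 4 control values do not overlap for any of the 8 genes, with Deptor between 6.80 and 7.34 in cKO nerves and between 8.94 and 9.52 in control nerves.

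Of the catalytic subunits, those of gamma and alpha were higher in cKO nerves at 2 months, and none of the 4 was called at P10. *Pik3cg* encodes p110 gamma, which acts below G protein-coupled receptors and is known mainly from leukocytes. It measured 9.01, 9.19, 8.84 and 8.90 in cKO nerves at 2 months, against 7.47, 7.89, 7.81 and 8.04 in control nerves. The 2 groups were well apart, by 1.18 on the log2 scale (standard error 0.12, adjusted p = 2.68e-06). In the younger nerves, 7.67, 7.31, 7.36 and 7.67 in cKO overlapped 7.22, 7.18, 7.48 and 7.23 in control, and the interaction was 0.96 (adjusted p = 0.00131). *Pik3ca*, which encodes the widely expressed p110 alpha, measured 9.74, 9.74, 9.77 and 9.88 in cKO against 9.44, 9.56, 9.46 and 9.60 in control nerves at 2 months. The change of 0.27 was small but without overlap (adjusted p = 0.02), and the call ended without cKO replicate 4 or control replicate 3 of that age (adjusted p up to 0.0785). *Pik3cd*, the p110 delta gene, another leukocyte form, changed by 0.34 at 2 months (adjusted p = 0.0541) with overlapping groups, and *Pik3cb*, the p110 beta gene, by 0.14 (adjusted p = 0.399). The *Pik3cd* change passed the threshold in 2 of 8 alternative settings and in 2 of 8 fits that left out a single array.

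Of the phosphatases that act on PIP3 and its product, the gene of the blood cell form SHIP1 was higher and that of the 4-phosphatase INPP4A lower in cKO nerves at 2 months. *Inpp5d*, which encodes SHIP1, measured 9.20, 9.20, 9.27 and 9.12 in cKO nerves at 2 months, against 7.37, 7.86, 7.67 and 7.65 in control nerves. All cKO values stood far above all control values, by 1.56 on average (standard error 0.11, adjusted p = 4.48e-08) or 2.95-fold. At P10 it measured 7.54, 7.44, 7.33 and 7.42 in cKO and 7.19, 7.50, 7.53 and 7.33 in control nerves, and these groups overlapped. The interaction of 1.52 was the highest among the members (adjusted p = 2.47e-06).

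*Inpp4a*, whose product removes a phosphate from the lipid that SHIP enzymes make, was the phosphatase gene called at P10, and it was lower then and later. It measured 7.99, 7.65, 7.66 and 7.83 in cKO nerves at P10, against 8.56, 8.46, 8.36 and 8.36 in control nerves, a change of -0.65 (standard error 0.11, adjusted p = 0.00123). At 2 months it measured 7.92, 7.70, 7.85 and 7.83 in cKO nerves against 8.79, 8.87, 8.82 and 8.77 in control nerves, a change of -0.99 (standard error 0.09, adjusted p = 5.74e-07). The groups did not overlap at either age, and the difference between the ages was not called (interaction -0.34, adjusted p = 0.11). *Inppl1*, which encodes SHIP2, the form found in most cells, was higher in cKO nerves at 2 months, with 7.96, 7.92, 8.01 and 7.78 against 7.72, 7.56, 7.76 and 7.57 in control nerves. The groups lay close without overlap, and the change was 0.27 (adjusted p = 0.0472). This call ended in 6 of 9 alternative settings and without cKO replicate 1, 2 or 3 or control replicate 2 or 4 of that age (adjusted p up to 0.127). At P10 *Inppl1* measured 8.03, 8.54, 8.34 and 8.35 in cKO and 8.47, 8.47, 8.80 and 8.63 in control nerves, a change of -0.28 that was not called, and the interaction of 0.55 was called (adjusted p = 0.0269). *Inpp4b* changed by -0.29 at P10 and by 0.05 at 2 months, neither called.

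Macrophage genes were higher in cKO nerves at 2 months, as were *Inpp5d*, *Pik3cg* and *Pik3r5*, while *Pik3cd* just missed the threshold (limma adjusted p = 0.0541). Of 13 measured macrophage genes, 13 were higher in cKO nerves at 2 months and 1 at P10, beside 18.5% and 5.48% of all genes. The markers with the highest levels, *Lyz2*, *Ctss* and *Fcgr3*, averaged 11.70, 11.53 and 10.23 in cKO nerves and 10.13, 8.79 and 9.06 in control nerves at 2 months. Of the other leukocyte lists, 7 of 9 genes of T and NK cells, 4 of 7 of neutrophils and 3 of 6 of B and plasma cells were higher at 2 months, and none at P10. Their part in the changes of *Inpp5d*, *Pik3cg* and *Pik3r5* was not tested. In the plot of these 3 genes and *Pik3cd* beside the macrophage level, the 4 cKO arrays of 2 months lay apart from the other 12 on the macrophage axis.

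**Figure D3:**
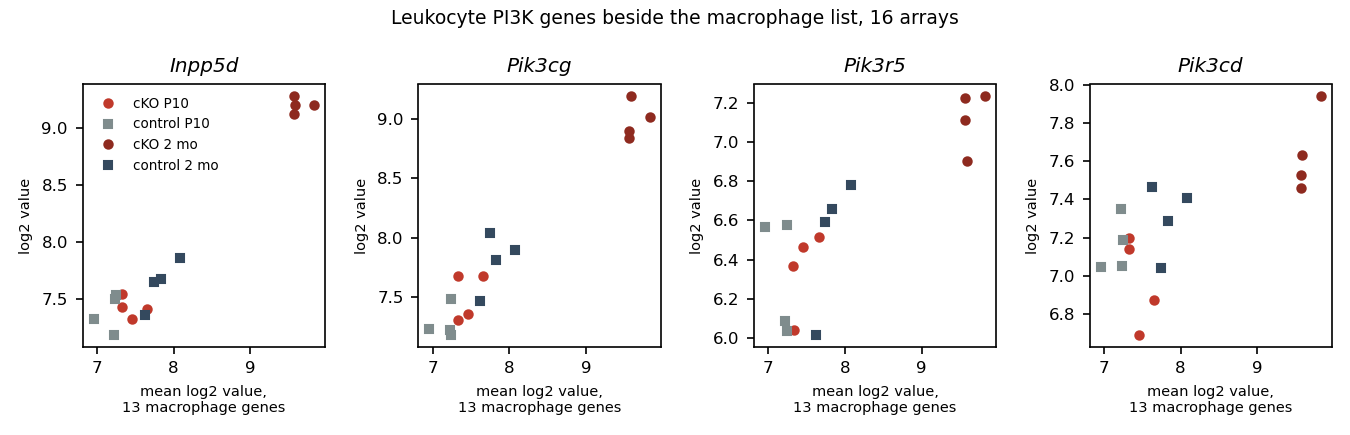
Log2 value of Inpp5d, Pik3cg, Pik3r5 and Pik3cd on each of the 16 arrays (a panel per gene) against the mean log2 level of 13 macrophage genes on the same array, with cKO arrays as circles and control arrays as squares. The 4 cKO arrays of 2 months lie between 9.56 and 9.83 on the macrophage axis and the 12 others between 6.96 and 8.08.

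Among PDK1, the AKT kinases and their phosphatase, changes were small and all calls were at 2 months. *Akt1* was higher in cKO nerves, with 9.70, 9.77, 9.49 and 9.57 against 9.41, 9.28, 9.20 and 9.22 in control nerves at 2 months. The groups lay close but did not overlap, and the log2 change was 0.35 (standard error 0.09, adjusted p = 0.00721). At P10 it measured 9.75, 9.74, 10.06 and 10.24 in cKO and 9.98, 10.22, 10.07 and 9.84 in control nerves, with overlap and a change of -0.08. *Pdpk1* encodes PDK1, the kinase that phosphorylates AKT and SGK in their activation loop. It was lower at 2 months, with 8.90, 9.05, 9.11 and 9.03 in cKO against 9.33, 9.39, 9.26 and 9.22 in control nerves, a change of -0.28 (adjusted p = 0.0204). The groups did not overlap, but the call ended in the fit of all 16 arrays (adjusted p = 0.0748) and without cKO replicate 1 or 4 or control replicate 2 of that age (adjusted p up to 0.0646). At P10 its values of 9.32, 9.58, 8.89 and 9.29 in cKO nerves overlapped those of 9.44, 9.22, 9.13 and 9.44 in control nerves.

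*Akt2*, the form best known from insulin signaling, was not called at either age, with values from 8.22 to 8.76 in cKO and 8.49 to 8.71 in control nerves at P10 and from 8.19 to 8.41 in cKO and 8.05 to 8.59 in control nerves at 2 months. *Phlpp1*, whose product dephosphorylates AKT, ran from 8.56 to 8.73 in cKO and from 8.24 to 8.44 in control nerves at P10. These groups did not overlap, and the change of 0.32 just missed the threshold (adjusted p = 0.0511). It was called in 5 of 8 alternative settings, and at 2 months the change was 0.18 (adjusted p = 0.208).

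The SGK kinases, relatives of AKT that PDK1 and mTORC2 activate, were the role in which both members were higher in cKO nerves at 2 months. *Sgk3*, which binds PI3P on endosomes through its PX domain, measured 8.61, 8.68, 8.37 and 8.42 in cKO nerves at P10, against 8.19, 7.96, 7.98 and 7.74 in control nerves. At 2 months it measured 8.99, 8.95, 9.10 and 9.27 in cKO nerves, against 8.41, 8.49, 8.43 and 8.50 in control nerves. At neither age did a cKO value reach down to a control value. The log2 change was 0.55 at P10 (standard error 0.12, adjusted p = 0.00653) and 0.62 at 2 months (standard error 0.09, adjusted p = 8.86e-05). The interaction was 0.07 (95% interval -0.25 to 0.38).

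*Sgk1*, which serum and glucocorticoids induce, was higher in cKO nerves at 2 months, with 8.97, 9.40, 8.93 and 9.14 against 8.55, 9.04, 8.41 and 8.13 in control nerves. Control replicate 2 lay within the cKO range, and the change was 0.58 (standard error 0.16, adjusted p = 0.011). At P10 *Sgk1* measured 9.06, 9.12, 8.99 and 8.68 in cKO and 8.62, 8.18, 8.74 and 8.59 in control nerves, a change of 0.43 that just missed the threshold (adjusted p = 0.0544) and passed it in 4 of 8 alternative settings.

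Of the mTOR complexes, *Deptor* alone was called, and it was lower at P10 and lower still at 2 months. DEPTOR binds mTOR and inhibits both of its complexes. At 2 months *Deptor* measured 6.80, 7.34, 7.04 and 7.11 in cKO nerves, against 9.52, 9.13, 9.22 and 8.94 in control nerves. The log2 change of -2.13 (standard error 0.14, adjusted p = 2.23e-08) left cKO nerves at 0.228 of the control level, the widest difference of any member in that comparison. At P10 it measured 8.71, 8.56, 7.92 and 8.12 in cKO nerves against 8.97, 8.62, 9.01 and 8.89 in control nerves. There cKO replicate 1 lay within the control range, and the change of -0.54 (adjusted p = 0.0416) lost its call in 5 of 9 alternative settings and without cKO replicate 3 or 4 or control replicate 1, 3 or 4 (adjusted p up to 0.126). The interaction was -1.59 (standard error 0.23, adjusted p = 9.90e-05).

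The other complex genes were not called at either age. *Mtor*, the kinase itself, ran from 8.84 to 8.98 in cKO and 8.59 to 8.83 in control nerves at 2 months, without overlap, a change of 0.18 (95% interval -0.01 to 0.37, adjusted p = 0.135). *Rictor*, the scaffold of mTORC2, ran from 9.52 to 9.70 in cKO and 9.71 to 10.16 in control nerves at 2 months, also without overlap, a change of -0.25 (adjusted p = 0.0633). *Rptor*, the scaffold of mTORC1, changed by 0.11 and *Mlst8*, a subunit of both complexes, by 0.26 at 2 months (adjusted p = 0.441 and 0.0853). At P10 the changes of these 4 genes lay between -0.18 and 0.16.

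In the switch below AKT, the genes of the TSC scaffold and of RHEB were higher in cKO nerves at 2 months, and that of the TSC subunit with the GTPase-activating domain was not called. *Tsc1*, which encodes the scaffold hamartin, measured 9.0, 9.14, 9.07 and 9.09 in cKO nerves at P10, against 8.69, 8.38, 8.34 and 8.78 in control nerves. At 2 months it measured 8.97, 9.17, 9.28 and 9.31 in cKO nerves, against 8.70, 8.76, 8.80 and 8.85 in control nerves. The groups did not overlap at either age. The change was 0.53 at P10 (standard error 0.12, adjusted p = 0.00677) and 0.41 at 2 months (standard error 0.09, adjusted p = 0.00338), and the interaction was -0.12 (95% interval -0.43 to 0.19). *Tsc2*, the gene of tuberin, changed by -0.07 at P10 and by -0.12 at 2 months, neither called.

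*Rheb*, the small GTPase that activates mTORC1, measured 8.82, 8.64, 8.84 and 8.90 in cKO nerves at 2 months, against 8.68, 8.59, 8.48 and 8.38 in control nerves. One cKO value lay within the control range, and the change of 0.27 (adjusted p = 0.0435) was lost in 4 of 8 alternative settings and without cKO replicate 1, 3 or 4 or control replicate 2, 3 or 4 of that age (adjusted p up to 0.134). At P10 it measured 8.44, 8.38, 8.66 and 8.50 in cKO and 9.03, 8.73, 8.78 and 8.64 in control nerves, a change of -0.30 that was not called. The interaction of 0.57 was called (adjusted p = 0.0138).

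The measured substrates were not called at either age. *Eif4ebp1*, the gene of the translation repressor 4E-BP1 that mTORC1 phosphorylates, changed by -0.24 at P10 and by 0.13 later. The genes of the forkhead factors, which AKT keeps out of the nucleus, changed by -0.08 and -0.01 (*Foxo1*) and by 0.21 and -0.03 (*Foxo3*) at P10 and at 2 months. *Gsk3b*, the gene of a kinase that AKT inhibits, changed by 0.14 at P10 and by 0.24 at 2 months (adjusted p = 0.0801, 95% interval 0.03 to 0.45). Their values at 2 months ran from 6.98 to 7.37 in cKO and 6.78 to 7.12 in control nerves for *Eif4ebp1* and from 10.39 to 10.64 in cKO and 10.13 to 10.53 in control nerves for *Gsk3b*.

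The interaction of genotype and age, which tests whether the cKO difference itself differs between the ages, was called in 7 of the 30 members, 23.3% beside 12.3% of all genes (7.69% above and 4.59% below 0). It was above 0 in *Inpp5d*, *Pik3r3*, *Pik3cg*, *Rheb* and *Inppl1* and below 0 in *Deptor* and *Pik3r1*. The interaction of *Inppl1* lost its call under a further quantile normalization and without cKO replicate 1 at P10, control replicate 3 at P10, cKO replicate 1 or 3 at 2 months or control replicate 2 at 2 months (adjusted p up to 0.0655).

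The changes with age split each interaction into the change of either genotype, and leave out the difference already present at P10. They share arrays with the comparisons above, so that they give the same values in another order. In control nerves 6 members were higher and 10 lower at 2 months than at P10 (53.3% beside 29% of all genes, of which 13.8% were higher and 15.2% lower), and in cKO nerves 9 were higher and 6 lower (50% beside 29.9%, of which 16.1% were higher and 13.8% lower). The 2 ages did not overlap for 12 members in control nerves and for 15 in cKO nerves, beside 26% and 31.9% of all genes. Genes of the cell lists changed with age too. In control nerves 10 of 12 skeletal muscle, 9 of 9 mitosis and 9 of 9 endothelial genes were lower at 2 months. Of 13 macrophage genes there, 11 were higher and 1 lower. In cKO nerves 4 of 12 muscle, 9 of 9 mitosis and 5 of 9 endothelial genes were lower, and 13 of 13 macrophage genes higher. Their part in the changes of the members with age was not tested. *Pik3r1* rose by 1.13 with age in control nerves (adjusted p = 3.66e-07), while its change in cKO nerves was 0.10 (95% interval -0.15 to 0.35). *Pik3r3* changed by -1.0 with age in control nerves (adjusted p = 2.12e-06) and by 0.28 in cKO nerves (95% interval 0.03 to 0.53, adjusted p = 0.0882). For both regulatory subunits the called change with age was that of control nerves.

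For *Deptor*, *Inpp5d* and *Pik3cg* the larger change with age was in cKO nerves. *Deptor* fell by 1.26 with age in cKO nerves (adjusted p = 3.53e-06) and changed by 0.33 in control nerves (adjusted p = 0.137). *Inpp5d* rose by 1.77 in cKO nerves (adjusted p = 1.14e-10) and changed by 0.25 in control nerves (adjusted p = 0.098), and *Pik3cg* rose by 1.48 in cKO and by 0.52 in control nerves. *Rheb* rose by 0.30 in cKO nerves (adjusted p = 0.03, up to 0.0937 without cKO replicate 1 or 2 at P10 or 1, 3 or 4 at 2 months) and changed by -0.26 in control nerves (adjusted p = 0.0624). *Inppl1* fell by 0.40 in cKO and by 0.94 in control nerves.

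*Akt1* fell with age by 0.31 in cKO and by 0.75 in control nerves, and its interaction of 0.44 was not called (adjusted p = 0.0838). In control nerves *Mtor* fell by 0.35, *Rptor* by 0.47 and *Mlst8* by 0.60, while *Rictor* rose by 0.61 (adjusted p = 0.00023). The cKO changes of these 4 genes were not called and were -0.29 for *Mtor*, -0.18 for *Rptor*, -0.23 for *Mlst8* and 0.20 for *Rictor*, and none of their interactions was called. *Tsc2*, *Pik3r2* and *Foxo3* fell and *Sgk3* and *Pik3ca* rose in both genotypes, by 0.56 in cKO and 0.49 in control nerves for *Sgk3*. All 4 catalytic subunit genes rose with age in cKO nerves, by 0.42 (*Pik3cb*) to 1.48 (*Pik3cg*). Some of these calls ended without a single array. That of *Akt1* in cKO nerves ended without cKO replicate 3 or 4 at P10, cKO replicate 1, 3 or 4 at 2 months or control replicate 2 at 2 months (adjusted p up to 0.167), and that of *Pik3cb* without cKO replicate 3 or 4 at P10 or 1 or 4 at 2 months (up to 0.129). In control nerves, that of *Mtor* ended without control replicate 1 or 4 at P10 or 1 or 3 at 2 months (up to 0.0897), that of *Foxo3* without any control array but replicate 3 at P10 and 2 at 2 months (up to 0.15), and that of *Pik3r2* without replicate 1 at 2 months (0.0582). That of *Pik3ca* ended without any control array but replicate 2 at P10 and 1 at 2 months, and without cKO replicate 3 at 2 months (up to 0.102).

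**Figure D4:**
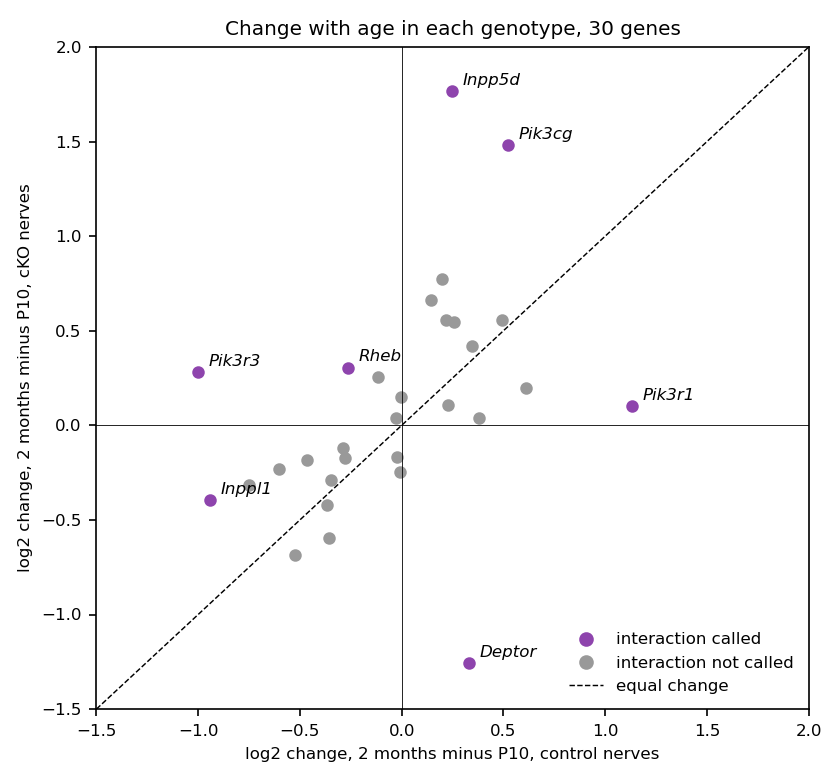
Log2 change from P10 to 2 months of the 30 measured genes in cKO nerves (vertical axis) against that in control nerves (horizontal axis), with the members whose interaction of genotype and age was called in purple and named, the others in grey, and a dashed line of equal change. Pik3r1 and Pik3r3 lie at 0.10 and 0.28 in cKO nerves and at 1.13 and -1.0 in control nerves, while Inpp5d and Deptor lie at 1.77 and -1.26 in cKO nerves and at 0.25 and 0.33 in control nerves.

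Other genes of the pathway, 53 measured of a list of 54, changed in both directions too. At P10 8 were higher and 9 lower in cKO nerves, beside 5.48% higher and 7.44% lower of all genes. At 2 months 18 were higher and 14 lower, with a median change of 0.04, beside 18.5% higher and 15.5% lower of all genes. Of 12 receptors and adaptors, 4 were higher and 7 lower at 2 months. Of 14 mTOR complex genes and regulators, 7 were higher and 2 lower.

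The 4 of these genes with the smallest p at P10 were all higher in cKO nerves. *Lpin1*, the gene of a phosphatidate phosphatase that mTORC1 phosphorylates, averaged 9.78 ± 0.12 in cKO and 8.52 ± 0.15 in control nerves at P10 (SD, n = 4 each), a change of 1.26 (adjusted p = 2.35e-06). *Sesn3*, whose product restrains mTORC1 under stress, averaged 11.16 ± 0.19 in cKO and 10.21 ± 0.08 in control nerves, a change of 0.95 (adjusted p = 4.17e-05). *Ddit4*, the gene of the mTORC1 inhibitor REDD1, changed by 0.72 (adjusted p = 0.00203). *Eef2k*, the gene of the kinase that slows translation elongation and that mTORC1 signaling holds in check, changed by 0.61 (adjusted p = 0.00261). At 2 months *Sesn3* averaged 10.85 in cKO and 10.00 in control nerves, *Ddit4* 8.09 and 7.27, and *Eef2k* 8.18 and 7.32. The *Ddit4* groups overlapped at that age.

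At 2 months the smallest p belonged to *Cdkn1b*, the gene of the cell cycle inhibitor p27 and a target of FOXO factors, with 10.01 ± 0.13 in cKO and 11.03 ± 0.09 in control nerves, a change of -1.02 (adjusted p = 5.15e-07). At P10 *Cdkn1b* averaged 10.52 ± 0.22 in cKO and 11.10 ± 0.18 in control nerves, also without overlap. The mitosis genes described above were higher at both ages, and a link of *Cdkn1b* to them was not tested. At 2 months *Lpin1* averaged 9.93 ± 0.13 in cKO and 8.65 ± 0.23 in control nerves, a change of 1.28 (adjusted p = 5.48e-07). *Ddit4l*, a relative of *Ddit4*, changed by 1.27 (adjusted p = 1.06e-06). *Pik3ap1*, the gene of the PI3K adaptor BCAP of B cells and macrophages, averaged 8.86 ± 0.21 in cKO and 7.78 ± 0.10 in control nerves, a change of 1.09 (adjusted p = 2.06e-06), at the age at which the macrophage genes were higher.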

How the data were processed

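Sciatic nerve RNA (100 ng of total RNA per array) was measured on 16 Clariom S arrays. The authors used Transcriptome Analysis Console to turn the scans into robust multiarray averages, and the deposited values are log2 expression values of 22206 transcript clusters, which were not normalized again. The scans were not used here, so signal over background is unknown, and precision is limited by the number of arrays. Clusters were named through the platform annotation (19572 with a symbol), and a gene with several clusters was represented by the one with the highest mean.

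Fits used limma 3.58.1 in R 4.3.3 (lmFit, eBayes with an intensity trend) on the 8 arrays of an age for each cKO comparison, and on all 16 arrays with 4 group means for the interaction and the changes with age. Calls were made at a Benjamini-Hochberg adjusted p under 0.05 over all 19505 genes. limma replaced the SAM algorithm of the methods. The fit was tested on simulated data with 200 changed genes.

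The members and gene lists were chosen with earlier results of these data known. Genes named are *Becn1*, all members, up to 4 other pathway genes with the smallest p at each age, and up to 3 markers of a cell list with the highest mean. The cell lists were macrophages, T and NK cells, B and plasma cells, neutrophils, myelinating and other Schwann cells, endothelial cells, adipocytes, skeletal muscle, fibroblasts and perineurium, smooth muscle and pericytes, and mitosis. Alternatives were a filter on dim genes (group mean over log2 6), the 5000 most variable clusters, every cluster, median centring, a further quantile normalization, array weights, no trend, the replicate number as a block, all 16 arrays in 1 fit for the cKO comparisons, and leaving out each array. Promoter windows are those of RefSeq on GRCm38.p6.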

Additional observations from a re-analysis of the deposited data

Results flagged for a closer look

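In 5 of 120 groups of 4 arrays tested over the members, 1 array stood apart from the other 3 by more than the critical gap of Dixon's test at this size. Chance alone flags about 1 in 20 groups. These arrays were control replicate 3 at P10 for *Pik3cg* (7.48, the highest), cKO replicate 1 at 2 months for *Rictor* (9.52, the lowest), control replicate 4 at P10 for *Tsc2* (9.25, the highest) and for *Foxo1* (8.01, the lowest), and control replicate 3 at 2 months for *Tsc2* (8.45, the lowest). Control replicate 4 at P10 is also the array with the highest mean of skeletal muscle genes (11.54).

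The cKO difference differed between the ages, by the interaction of limma, in 7 of the 30 members, 23.3% beside 12.3% of all genes. It was larger at 2 months than at P10 by 1.52 for *Inpp5d*, 1.28 for *Pik3r3* and 0.96 for *Pik3cg* on the log2 scale. For *Inppl1* (0.55) and *Rheb* (0.57) the changes at P10 and at 2 months had opposite signs, and the change at P10 was not called. It was below 0 for *Deptor* (-1.59) and *Pik3r1* (-1.03).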

How the results depend on the processing

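No called member changed its direction under any alternative, and no shift of the median of all genes under another scaling exceeded 0.1. At P10, 5 members in place of 3 were higher without dim genes, after median centring, after a further quantile normalization and with array weights, since *Sgk1* and *Phlpp1* then passed. There 1 member in place of 2 was lower after centring, quantile normalization, array weights, without the intensity trend and with the replicate number as a block, since *Deptor* was lost. With only the 5000 most variable clusters tested, 10 members remained to be tested. At 2 months this gave 1865 genes higher and 1815 lower with 6 members higher. For the change with age it gave 1720 higher and 1618 lower with 3 members lower in control nerves, and 1844 higher and 1491 lower with 4 members higher and 3 lower in cKO nerves. A further quantile normalization gave 4 members in place of 2 with an interaction below 0.

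Replicate numbers did not pair the samples (correlations of deviations -0.15 to 0.19, over 0.1 in 4 of 16 pairs). With the replicate block the counts were 3 members higher with 1 lower at P10, against 10 higher with 4 lower at 2 months.

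Leaving out 1 array at a time gave 841 to 1014 genes higher and 1131 to 1532 lower at P10 with 3 to 4 members higher and 1 to 2 lower. At 2 months it gave 3151 to 3760 higher and 2545 to 2945 lower with 9 to 14 and 3 to 5 members. The interaction gave 1100 to 1659 above and 632 to 1009 below 0 with 4 to 7 and 2 to 3 members. The change with age gave 2376 to 2740 higher and 2560 to 2993 lower with 5 to 8 and 7 to 11 members in control nerves, and 2695 to 3231 higher and 2213 to 2841 lower with 7 to 9 and 5 to 7 members in cKO nerves. Without control replicate 4 at P10, the array with the most muscle signal, 4 members were higher and 1 lower at that age.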

Other observations

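Genes of other cell lists of the nerve changed too. Of all genes, 7.44% were lower at P10 and 15.5% at 2 months, and 5.48% and 18.5% were higher. At P10, 8 of 9 endothelial genes, 8 of 9 adipocyte genes and 6 of 8 genes of smooth muscle and pericytes were lower in cKO nerves, and at 2 months 4, 5 and 3 of them. Of 8 genes of fibroblasts and perineurium, 3 were lower at P10, and 5 were lower and 1 higher at 2 months. Of 7 genes expressed by Schwann cells of any stage, P10 gave 2 higher with 2 lower, and 2 months 3 higher with 3 lower. The immunoglobulin joining chain gene *Jchain*, a marker of plasma cells, averaged 10.37 in cKO and 5.21 in control nerves at 2 months, and 3.63 in cKO and 3.81 in control nerves at P10.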
